A study of Mus musculus with 12 samples.

Results

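The simple epithelial keratins Krt7, Krt8, Krt18 and Krt19 were followed by RNA-Seq in mouse embryonic stem cells (mESCs) that had or lacked the nucleosome-binding proteins HMGN1 and HMGN2. The 4 genes were taken by symbol, as the keratins best known from single-layered epithelia, with earlier results of these data known. They are 4 of the 23412 genes in the count tables and 4 of the 52 genes there with a keratin symbol (Krt and a number). There were 12 libraries, 3 for each of 4 genotypes. WT cells were the male v6.5 line. Hmgn1-/- cells carried a homozygous frameshift deletion in Hmgn1, and Hmgn2-/- cells a homozygous frameshift insertion in Hmgn2, both made with Cas9. The double knockout, Hmgn1-/-Hmgn2-/-, came from the Hmgn2-/- line after a further round of Cas9 directed at Hmgn1, so it carried both frameshifts and the history of that line. Every group was grown in serum and LIF on gelatin and was harvested 48 h after plating. Each edited line came from a single cell, so genotype and clone cannot be told apart in these data, and the spread between replicates is a spread between cultures of 1 line. Library totals ran from 17337908 to 31448468 counts. Levels are given as TMM-scaled CPM, that is, counts relative to library totals that were adjusted by the trimmed mean of M values, as mean ± SD (n = 3).

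Keratins form the intermediate filaments of epithelial cells. A filament is built from pairs of an acidic type I and a basic type II keratin, and a keratin left without a partner is degraded. Krt8 (type II) and Krt18 (type I) are the main pair of simple epithelia and are the earliest keratins of the mouse embryo, where trophectoderm and then extraembryonic endoderm carry them. Krt7 (type II) and Krt19 (type I) accompany that pair in many ducts, in mesothelium and in trophoblast.

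The edited genes were examined first. Hmgn1 stood at 661, 594 and 612 CPM in the WT libraries and at 138, 139 and 142 in the Hmgn1-/- libraries. In Hmgn2-/- cells Hmgn1 was at 546, 556 and 640 CPM, and in the double knockout at 21.6, 19.9 and 21.5. Both groups with an edited Hmgn1 lay below every other library, and the double knockout lay below Hmgn1-/- cells as well (log2 FC -2.73 ± 0.063 (SE), edgeR quasi-likelihood test, Benjamini-Hochberg adjusted p = 7.8e-13). Hmgn2 stood at 137, 121 and 119 CPM in WT and at 106, 113 and 109 in Hmgn1-/- cells. It was at 50.9, 54.5 and 53.7 CPM in Hmgn2-/- cells and at 53.9, 50.5 and 54.5 in the double knockout. Both groups with an edited Hmgn2 lay below the others (against WT, log2 FC -1.24 ± 0.085 with edgeR adjusted p = 5.7e-06 and -1.25 ± 0.068 with adjusted p = 1.9e-08). The libraries therefore followed their labels, although transcripts of the frameshifted genes remained countable.

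The cells were next compared with their label by 10 genes of mouse embryonic stem cells. All 10 were counted in every group, and their summed level was 6591 ± 156 CPM in WT, 6644 ± 271 in Hmgn1-/-, 6524 ± 575 in Hmgn2-/- and 6321 ± 415 in double knockout cells. The most abundant were Pou5f1, Dppa5a and Utf1. Pou5f1, a core factor of pluripotency, stood at 1966 ± 82.5 CPM in WT and at 1872 ± 135, 1883 ± 262 and 1839 ± 142 in Hmgn1-/-, Hmgn2-/- and double knockout cells. Within the list the directions differed: Utf1 (log2 FC 0.29, 0.27 and 0.21) and Esrrb (0.47, 0.32 and 0.28) lay above WT without overlap in each knockout, and Nanog (-0.32, -0.50 and -0.45) and Klf2 (-0.35, -0.28 and -0.35) below it, where 21.9%, 17.4% and 21.8% of all genes tested lay above and 20.5%, 18.7% and 20.8% below. Esrrb, Nanog and Klf2 were named after their values were seen. None of the 10 passed the limits used throughout, an adjusted p under 0.01 and a log2 FC of at least 1 in size, in any knockout against WT by edgeR or by DESeq2. At an unadjusted p under 0.05, 6, 4 and 5 of them differed from WT in Hmgn1-/-, Hmgn2-/- and double knockout cells, and of all genes tested 38.7%, 31.0% and 38.9% did.

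Krt8 and Krt18 lie on chromosome 15 and are read away from each other, with 23873 bp between their starts. In RefSeq (GRCm38) Krt8 spans 101996711 to 102004342 on the minus strand and Krt18 spans 102028216 to 102032026 on the plus strand. Krt7 lies on the same chromosome at 101412403 to 101427806 on the plus strand, and Krt19 on chromosome 11 at 100140810 to 100145926 on the minus strand. Because the 4 genes fell together in the knockouts (below), a stretch of up to 150 bases before the start is shown for Krt7, Krt8 and Krt18, the 3 held by the promoter table used, 5′ to 3′ on the strand of the gene. The sequences are from RefSeq (GRCm38.p6), and each stretch ends before the start of the principal GENCODE transcript, which lies 1 base upstream of the RefSeq start for Krt7, 140 bases for Krt8 and 36 bases for Krt18. Their positions are chr15:101412252-101412401 for Krt7, chr15:102004483-102004592 for Krt8 and chr15:102028030-102028179 for Krt18. Capitals mark matches on either strand to a TATA box (TATAAA), an AP-1 site (TGANTCA), a GC box (GGGCGG), an E-box (CACCTG) and an AP-2 site (GCCNNNGGC).
Krt7: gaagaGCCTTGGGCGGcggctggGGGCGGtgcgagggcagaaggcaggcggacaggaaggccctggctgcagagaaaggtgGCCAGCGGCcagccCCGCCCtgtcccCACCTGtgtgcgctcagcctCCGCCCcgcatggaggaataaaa
Krt8: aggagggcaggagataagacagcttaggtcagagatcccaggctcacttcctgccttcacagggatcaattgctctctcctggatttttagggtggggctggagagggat
Krt18: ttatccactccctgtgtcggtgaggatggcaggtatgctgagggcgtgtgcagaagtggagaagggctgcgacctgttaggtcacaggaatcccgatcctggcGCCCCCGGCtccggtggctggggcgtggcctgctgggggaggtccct
Distances of the matches were counted from the RefSeq start, within windows of 300 bases (250 before and 50 after it). Krt7 held 4 GC boxes, 1 E-box and 2 AP-2 sites, and the AP-2 site that lies farthest upstream overlaps the first GC box. Krt8 held 1 E-box, 111 bases upstream of that start, and TATAAA on both strands across the start itself; both lie inside the GENCODE transcript, and the printed stretch of 110 bases holds no match. Krt18 held 1 AP-2 site, 83 bases upstream, and an E-box 214 bases upstream that is not printed. None of the 3 windows held TGANTCA. Among 32851 RefSeq promoters of that length, 13.6% held the TATA box, 7.81% the AP-1 site, 35.7% the GC box, 20.2% the E-box and 16.6% the AP-2 site. GC content of the printed stretches was 70.0% for Krt7, 53.6% for Krt8 and 65.3% for Krt18. A match of letters is a description and shows no binding.

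Of the type II keratins, Krt8 was the most abundant of the 4 genes. The WT libraries held 171, 197 and 273 CPM of Krt8. The Hmgn1-/- libraries held 26.4, 22.7 and 43.1 CPM, and the Hmgn2-/- libraries 43.1, 44.9 and 68.4. The double knockout libraries held 42.1, 48.4 and 55.2 CPM. Every knockout library lay below every WT library, and the lowest WT library was 2.49 times the highest knockout library. Mean Krt8 fell to 14.4% of WT in Hmgn1-/- cells (log2 FC -2.80 ± 0.20 (SE), edgeR adjusted p = 3.4e-07). It fell to 24.4% of WT in Hmgn2-/- cells (-2.04 ± 0.20, adjusted p = 5.8e-05) and to 22.8% in the double knockout (-2.14 ± 0.14, adjusted p = 1.3e-07). In bulk RNA, fewer cells with keratin transcripts and fewer keratin transcripts per cell cannot be told apart, for this gene or for the others.

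Krt7 was the scarcer type II keratin and had the largest fall of the 4 in each comparison with WT. Its WT libraries held 13.4, 14.1 and 22.4 CPM. Hmgn1-/- libraries held 1.42, 1.43 and 1.88 CPM, and Hmgn2-/- libraries 3.00, 2.54 and 3.15. Double knockout libraries held 1.38, 1.22 and 1.45 CPM, from 27 to 43 counts. The knockout groups were again below WT without overlap, and the Hmgn2-/- libraries lay above all libraries of the other 2 knockouts. Mean Krt7 was 10.5-fold lower than WT in Hmgn1-/- cells (log2 FC -3.41 ± 0.22, edgeR adjusted p = 1.6e-07), 5.74-fold lower in Hmgn2-/- cells (-2.53 ± 0.22, adjusted p = 2.6e-05) and 12.3-fold lower in the double knockout (-3.62 ± 0.22, adjusted p = 5.0e-08).

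Of the type I keratins, Krt18, the partner of Krt8, stood at 107, 123 and 179 CPM in WT. It was at 17.9, 16.1 and 24.7 CPM in Hmgn1-/- cells and at 23.3, 25.8 and 41.1 in Hmgn2-/- cells. In the double knockout it was at 18.7, 22.8 and 26.5 CPM. No knockout library reached the WT range, and the 3 knockout groups overlapped one another. Mean Krt18 fell to 14.4% of WT in Hmgn1-/- cells (log2 FC -2.80 ± 0.18, edgeR adjusted p = 1.2e-07), 22.1% in Hmgn2-/- cells (-2.19 ± 0.23, adjusted p = 8.4e-05) and 16.7% in the double knockout (-2.60 ± 0.17, adjusted p = 9.0e-08).

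Krt19, a small type I keratin that lacks most of the tail domain, stood at 18.2, 18.4 and 24.9 CPM in WT. It was at 3.65, 2.96 and 4.87 CPM in Hmgn1-/- cells and at 5.43, 5.37 and 9.75 in Hmgn2-/- cells. In the double knockout it was at 4.23, 4.15 and 5.23 CPM. The groups did not overlap WT here either, with a lowest WT library 1.87 times the highest knockout library, the third Hmgn2-/- replicate. Krt19 had the smallest fall of the 4 in Hmgn1-/- and Hmgn2-/- cells, to 18.7% of WT in Hmgn1-/- cells (log2 FC -2.43 ± 0.17, edgeR adjusted p = 3.4e-07) and 33.4% in Hmgn2-/- cells (-1.61 ± 0.22, adjusted p = 0.00052). In the double knockout it fell to 22.1% (-2.18 ± 0.15, adjusted p = 1.5e-07).

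**Figure D1:**
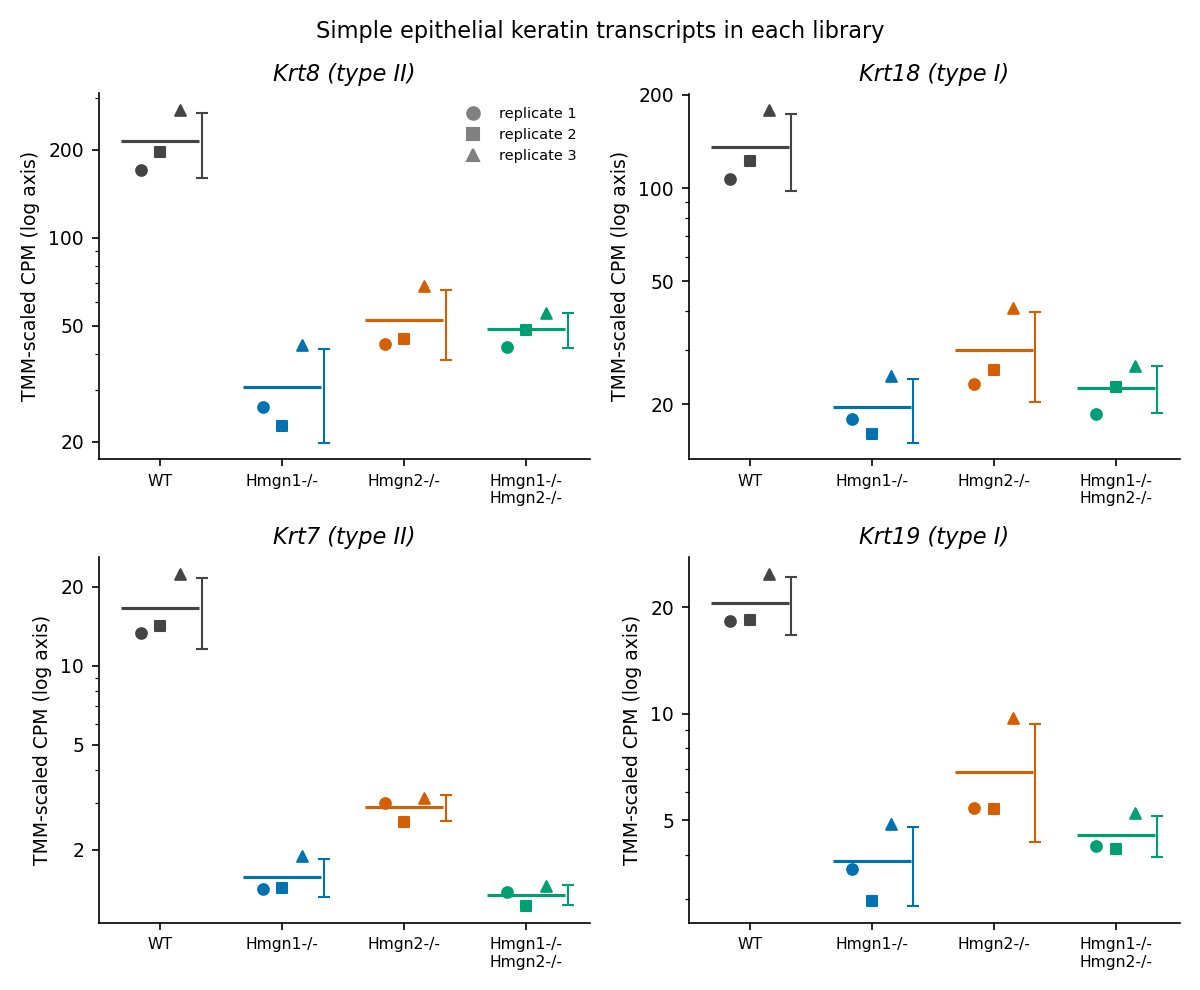
TMM-scaled CPM (log axis) of Krt8, Krt18, Krt7 and Krt19 in each of the 12 libraries, with 1 panel for each gene; symbols give the replicate number, horizontal lines the group mean and side bars the SD (n = 3). All WT libraries lie above all knockout libraries in each panel, and replicate 3 is the highest library of every group.

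All 4 keratins passed the limits downward in each knockout against WT. Because they were chosen with earlier results of these data known, the shares over all genes are a background and no test of enrichment. Over all genes tested, the same call went to 5.08% of 13917 genes in Hmgn1-/- cells, 4.38% of 14047 in Hmgn2-/- cells and 5.00% of 14128 in the double knockout. Upward calls were 0.898%, 0.776% and 1.30%. Groups with all 3 knockout libraries below all 3 WT libraries, as found for the 4 keratins each time, made up 20.5%, 18.7% and 20.8% of the genes tested. The median log2 FC of the 4 was -2.80, -2.11 and -2.39, beside medians over all genes tested of 0.0040, 0.013 and 0.0037. Among the genes called lower, ordered by the size of the fall, Krt7 was number 71 of 707 in Hmgn1-/- cells, 137 of 615 in Hmgn2-/- cells and 31 of 706 in the double knockout. Krt8 held places 120, 222 and 173 in the same order of comparisons. Krt18 held places 121, 188 and 94, and Krt19 held 163, 338 and 165. The comparisons share the WT libraries, so they are not independent of one another.

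Replicate 3 was the highest of its group for Krt8 in 4 of 4 groups, and likewise for Krt7, Krt18 and Krt19, while the lowest was replicate 1 in some groups and replicate 2 in others for each gene. The summed level of the 4 keratins was 309, 352 and 499 CPM in WT replicates 1, 2 and 3, and 49.5, 43.2 and 74.5 in those of Hmgn1-/- cells. It was 74.8, 78.6 and 122 CPM in Hmgn2-/- cells and 66.4, 76.6 and 88.4 in the double knockout. The sources used here do not say whether a replicate number stands for a shared day of culture. With the replicate number as a block, the 4 genes passed the limits in each knockout against WT as they did without it.

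Compared per length of transcript, the order of the genes in WT was Krt8, Krt18, Krt19 and Krt7. Their levels were 118 ± 29.5, 97.1 ± 27.0, 14.8 ± 2.73 and 10.5 ± 3.16 CPM per kb. The gap of 21.1 between Krt8 and Krt18 was within the SDs, while those of 82.3 between Krt18 and Krt19 and 4.35 between Krt19 and Krt7 exceeded them (all in CPM per kb). The order was the same in each of the 3 WT libraries. The lengths were those of the principal transcript inside the RefSeq gene, 1805, 1400, 1382 and 1586 bp. For Krt7 the GENCODE transcript runs to 4094 bp, and its WT level on that length would be 4.06 CPM per kb. In the double knockout the levels were 26.9 ± 3.63 for Krt8, 16.2 ± 2.81 for Krt18 and 3.28 ± 0.433 for Krt19 (CPM per kb), with Krt7 again the lowest. Krt8 and Krt18 made up between 88.7% and 93.0% of the summed CPM of the 4 in every library.

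Whether loss of the second protein changed the keratins further was addressed by comparing the knockouts directly. From Hmgn1-/- to Hmgn2-/- cells the fitted log2 FC was 0.76 ± 0.23 for Krt8, 0.87 ± 0.21 for Krt7, 0.61 ± 0.22 for Krt18 and 0.81 ± 0.26 for Krt19. None of the 4 passed the limits (edgeR adjusted p = 0.28 for Krt7 and higher for the others), where 0.176% of 13648 genes did. All 4 had an unadjusted p under 0.05, as did 3.20% of all genes tested, and DESeq2 called none of them. Each of the 4 was higher in Hmgn2-/- cells in 3 of 3 same-numbered pairs. For Krt7, Krt8 and Krt19 this follows from the lack of overlap given below, and the share of all genes in such an order was not counted. With the replicate number as a block the edgeR adjusted p was 4.0e-05 for Krt8, 0.0033 for Krt18, 0.021 for Krt19 and 0.11 for Krt7, and the fold limit was reached by none (log2 FC 0.78, 0.60, 0.82 and 0.89). Without Hmgn2-/- replicate 3 the log2 FC was 0.33 for Krt18 and 0.50 for Krt19. Hmgn2-/- libraries lay above Hmgn1-/- libraries without overlap for Krt7, Krt19 and, by the narrowest margin (43.11 against 43.06 CPM), Krt8, as they did for 3.93% of the genes tested.

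Between the double knockout and Hmgn1-/- cells, Krt8 differed by a log2 FC of 0.66 ± 0.17 (edgeR adjusted p = 0.073). Krt7, Krt18 and Krt19 stood at -0.22 ± 0.24, 0.21 ± 0.15 and 0.24 ± 0.18, and without single libraries they ranged from -0.30 to -0.077, from 0.079 to 0.41 and from 0.097 to 0.45. The libraries of these groups overlapped for all 4 genes. In 3 of 3 same-numbered pairs Krt8, Krt18 and Krt19 were higher and Krt7 was lower in the double knockout. The share of all genes in such an order was not counted. No member passed the limits by edgeR or DESeq2, and 0.511% of 13710 genes were called. An unadjusted p under 0.05 was found for 1 of 4 and for 9.53% of all genes tested. With the replicate block the adjusted p of Krt8 was 3.8e-06 by edgeR at a log2 FC of 0.68. Without Hmgn1-/- replicate 3 it was 2.2e-05 at 0.98, and both were under the fold limit. The pairing behind the block and the same-numbered pairs was not borne out for every replicate here. Deviations of the libraries numbered 2 correlated at only 0.0628.

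The double knockout was set beside its parental line, Hmgn2-/-, from which it differs by the added Hmgn1 edit and by a further round of cloning. Krt7 was at 1.35 ± 0.118 CPM in the double knockout against 2.90 ± 0.321 in Hmgn2-/- cells, and its libraries did not overlap (log2 FC -1.09 ± 0.19, edgeR adjusted p = 0.071). Krt19 was also lower in every library (-0.57 ± 0.23, adjusted p = 1.0), whereas Krt8 (-0.098 ± 0.17) and Krt18 (-0.40 ± 0.21) overlapped. By edgeR and by DESeq2 0 of the 4 passed the limits, and 2 of 4 had an unadjusted p under 0.05, as did 4.44% of all genes tested. Groups that lay lower without overlap, as for Krt7 and Krt19, made up 4.78% of the genes tested. Krt7, Krt18 and Krt19 were each lower in the double knockout in 3 of 3 same-numbered pairs. For Krt7 and Krt19 this follows from the lack of overlap, and the share of all genes in such an order was not counted. With the replicate block the edgeR adjusted p was 0.017 for Krt7, 0.065 for Krt18, 0.12 for Krt19 and 0.79 for Krt8. Without Hmgn2-/- replicate 3 the log2 FC was -0.25 for Krt19 and -0.12 for Krt18. In all, 6 of 13816 genes (0.0434%) were called, and 32 with the replicate block. A p that misses the limit does not show equal levels.

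The change in the double knockout was smaller than the sum of the changes in the single knockouts for all 4 genes. For Krt8, mean log2 CPM fell by 2.82 in Hmgn1-/- and by 2.04 in Hmgn2-/- cells, which add to -4.86, while the double knockout differed from WT by -2.11. The contrast of the double knockout with that sum, fitted over all 12 libraries, was 2.71 ± 0.32 on the log2 scale (edgeR adjusted p = 5.3e-05). It was 2.32 ± 0.33 for Krt7 (adjusted p = 0.00029), 2.41 ± 0.32 for Krt18 (adjusted p = 0.00014) and 1.87 ± 0.32 for Krt19 (adjusted p = 0.0012). All 4 keratins thus passed the limits upward, where 2.98% of 14323 genes tested did. The contrast uses the WT libraries for every term, so it shares them with the comparisons above.

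**Figure D2:**
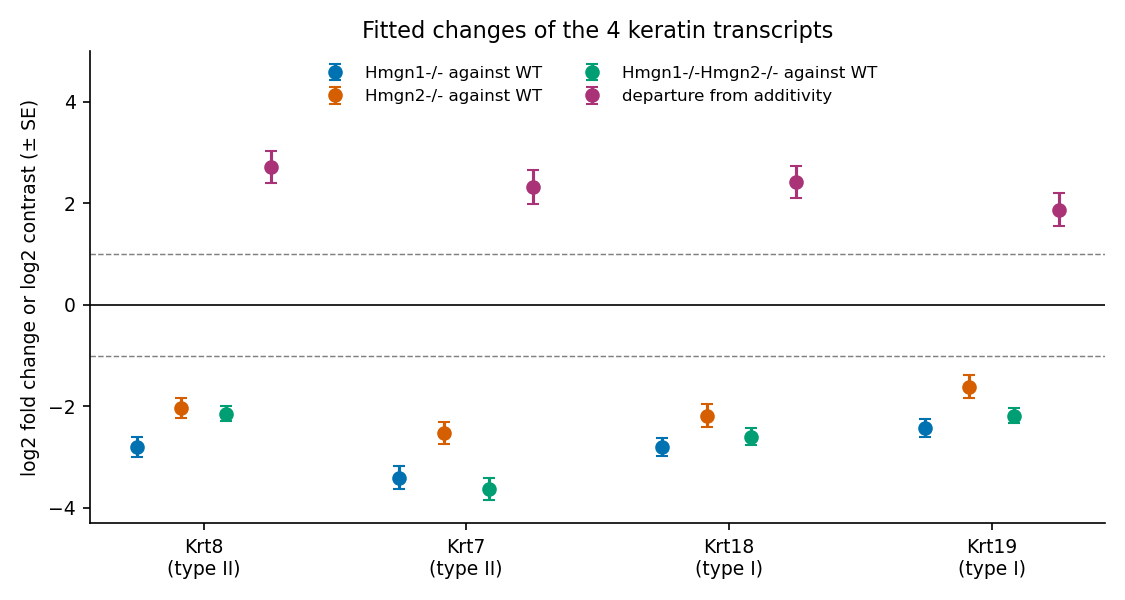
Fitted log2 FC of each keratin in Hmgn1-/-, Hmgn2-/- and double knockout cells against WT, and the departure of the double knockout from the sum of the single changes (log2), with SE as bars; dashed lines mark a log2 value of 1 in either direction. The falls lie between -1.61 and -3.62, and the departures lie between 1.87 and 2.71.

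Type I and type II keratins pair in equal numbers in the filament, so the balance of their transcripts was examined among the 4 members. Other type I keratins, among them Krt17 and Krt42, were not counted. Krt17 stood at 26.6, 11.6, 14.1 and 10.6 CPM in WT, Hmgn1-/-, Hmgn2-/- and double knockout cells. Krt42 stood at 31.8, 17.7, 18.3 and 13.4 CPM in the same order. The ratio therefore does not give the balance over all keratins. The ratio of type I (Krt18 and Krt19) to type II (Krt7 and Krt8) counts per kb was 0.869, 0.856 and 0.880 in WT. It was 0.995, 1.01 and 0.846 in Hmgn1-/- and 0.797, 0.844 and 0.912 in Hmgn2-/- cells, which overlapped WT. In the double knockout it was 0.677, 0.698 and 0.722, below every other library. The log2 ratio differed from WT by 0.13 in Hmgn1-/- cells, by -0.031 in Hmgn2-/- cells and by -0.31 in the double knockout. The exact two-sided permutation p of these was 0.4, 0.7 and 0.1 (0.6, 0.7 and 0.3 after Benjamini-Hochberg adjustment over the 3), and 0.1 is the smallest that 3 libraries against 3 allow.

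The ratio of Krt8 to Krt18 counts was chosen after the values were seen and was not tested. It stood at 1.58 ± 0.0417 in WT, 1.54 ± 0.176 in Hmgn1-/-, 1.75 ± 0.0951 in Hmgn2-/- and 2.16 ± 0.0904 in double knockout cells. The double knockout libraries ran from 2.08 to 2.26 and lay above the 9 others, of which the highest was 1.85.

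**Figure D3:**
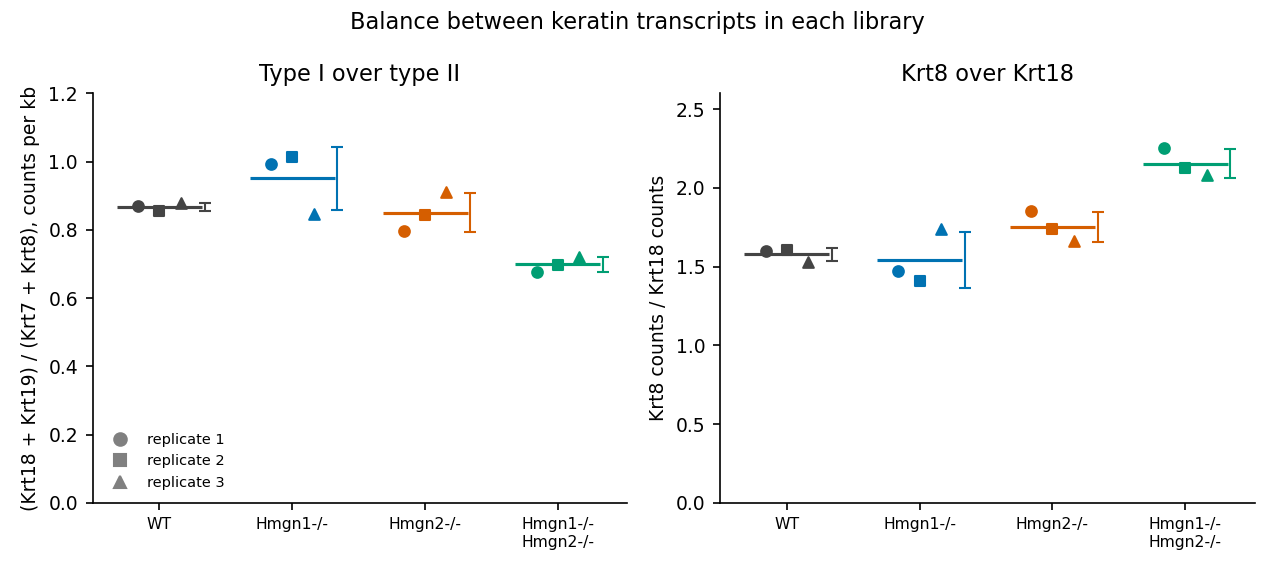
Left, ratio of type I (Krt18 and Krt19) to type II (Krt7 and Krt8) counts per kb in each library. Right, ratio of Krt8 to Krt18 counts. Symbols give the replicate number, lines the group mean and bars the SD (n = 3), and the double knockout is the lowest group on the left (0.699 ± 0.0221) and the highest on the right (2.16 ± 0.0904).

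The other keratins were mostly scarce. Of 48 other keratin genes in the tables, 12 had no count in any library and 41 had a mean under 10 counts. Of those tested, 4 of 9 were lower and 1 higher in Hmgn1-/- cells. In Hmgn2-/- cells 1 of 8 was lower, and in the double knockout 5 of 7 were. Over all genes tested 5.08%, 4.38% and 5.00% were called lower and 0.898%, 0.776% and 1.30% higher. The medians of the other keratins were -1.20, -0.86 and -1.34. Krt42, a type I keratin, stood at 31.8 ± 2.32 CPM in WT and 13.4 ± 2.11 in the double knockout (log2 FC -1.26 ± 0.11, edgeR adjusted p = 2.8e-06). Krt17, a stress-inducible keratin of skin appendages, stood at 26.6 ± 2.22 CPM in WT, 11.6 ± 0.723 in Hmgn1-/- cells (-1.20 ± 0.10, adjusted p = 1.2e-06) and 10.6 ± 2.01 in the double knockout (-1.34 ± 0.13, adjusted p = 4.5e-06). In Hmgn2-/- cells neither passed the fold limit, Krt17 with a log2 FC of -0.93 ± 0.15 and Krt42 with -0.80 ± 0.16. The remaining calls, named after their values were seen, were on few counts: Krt13, Krt16 and Krt20 were lower and Krt28 was higher. DESeq2 called 4, 3 and 4 of the list lower and none higher, so that the call of Krt28 was made by edgeR alone. The summed level of the 48 was 71.9 ± 1.89 CPM in WT, 36.2 ± 5.58 in Hmgn1-/-, 39.3 ± 8.02 in Hmgn2-/- and 30.4 ± 4.01 in double knockout cells.

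The genes beside the keratins on the chromosome were then counted. Of 10 genes around Krt8 and Krt18, 5 on each side, the 5 on the Krt18 side were tested, and none of these passed the limits in any knockout against WT by edgeR or DESeq2. The 5 on the Krt8 side, all keratins, had too few counts to be tested. At an unadjusted p under 0.05 there were 4, 2 and 4 in Hmgn1-/-, Hmgn2-/- and double knockout cells, where 38.7%, 31.0% and 38.9% of all genes tested had such a p. Of 10 around Krt7, 2 were tested (Grasp and Nr4a1, on its upstream side), none passed by either tool, and 1 had an unadjusted p under 0.05 in each comparison. Of 10 around Krt19, all of them type I keratins, 5 were tested. Lower calls there went to Krt13, Krt16 and Krt17 in Hmgn1-/- cells and to these and Krt42 in the double knockout. In these comparisons 5.08% and 5.00% of all genes tested were called lower. In Hmgn2-/- cells edgeR called none and DESeq2 called 2. Krt13 and Krt16 stood there at a log2 FC of -1.69 and -2.08 (edgeR adjusted p = 0.011 and 0.013). In Hmgn1-/- cells they stood at -1.54 and -2.19. An unadjusted p under 0.05 went to 5, 4 and 5 of the 5 in Hmgn1-/-, Hmgn2-/- and double knockout cells.

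Keratin filaments are anchored at desmosomes and hemidesmosomes, and 21 genes of these junctions and their linkers were followed. Of 16 tested, the median log2 FC was -0.17, -0.20 and -0.15 in Hmgn1-/-, Hmgn2-/- and double knockout cells. In each knockout against WT 2 of them were called lower and none higher, where 5.08%, 4.38% and 5.00% of all genes tested were called lower. At an unadjusted p under 0.05, 8, 6 and 6 were lower and 2, 2 and 2 higher. Of all genes tested, 38.7%, 31.0% and 38.9% had such a p in either direction. One was desmoplakin (Dsp), which ties keratins to the desmosome. Dsp stood at 32.7 ± 6.52 CPM in WT, 6.12 ± 1.03 in Hmgn1-/- (log2 FC -2.41 ± 0.15, edgeR adjusted p = 1.2e-07), 7.95 ± 3.07 in Hmgn2-/- (-2.01 ± 0.23, adjusted p = 0.00018) and 8.14 ± 0.895 in double knockout cells (-2.02 ± 0.14, adjusted p = 2.0e-07). The other was the desmosomal cadherin Dsc2, named after its values were seen, at 3.37 ± 0.484 CPM in WT and 0.727 ± 0.261, 1.03 ± 0.231 and 1.38 ± 0.300 in the knockouts in the same order. Dsg2, a further desmosomal cadherin, and Evpl lay above WT without overlap in each knockout, under the fold limit. Their log2 FC was 0.76, 0.59 and 0.65 for Dsg2 and 0.40, 0.68 and 0.66 for Evpl. Such an order above WT was found for 21.9%, 17.4% and 21.8% of all genes tested. Both were named after their values were seen. The most abundant genes of the list, the linkers Plec, Dst and Jup, did not pass. Plec stood at 234 ± 41.3 CPM in WT and 213 ± 6.50 in the double knockout, Dst at 206 ± 21.3 and 185 ± 18.8, and Jup at 202 ± 25.7 and 146 ± 3.65.

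Among 16 other intermediate filament genes, 15 were tested. A lower call went to 1 of them, Nefm, in each knockout, where 5.08%, 4.38% and 5.00% of all genes tested were called lower, and a higher call to Gfap in Hmgn2-/- and double knockout cells; both were named after their values were seen and had means under 50 counts. The list medians were 0.043, 0.046 and -0.029. Its most abundant gene, the nuclear lamin Lmnb1, stood at 795 CPM in WT and 818 in the double knockout. Vim, the filament of mesenchymal cells, did not reach the fold limit, with 137 ± 9.02 CPM in WT and 85.1 ± 3.89, 102 ± 0.672 and 108 ± 3.26 in Hmgn1-/-, Hmgn2-/- and double knockout cells; it was named after its values were seen.

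Among 12 partners and chaperones of keratins, such as Dnajb6, Hspb1 and the 14-3-3 genes, 11 were tested and none passed the limits in any knockout against WT by edgeR or DESeq2. At an unadjusted p under 0.05, 6, 2 and 4 were lower and none higher in Hmgn1-/-, Hmgn2-/- and double knockout cells, where 38.7%, 31.0% and 38.9% of all genes tested had such a p in either direction. The medians were -0.12, -0.082 and -0.073. The most abundant was Hspa8, at 4149 CPM in WT and 4295 in the double knockout.

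Of 27 regulators of epithelial and simple keratin genes, 25 were tested. Lower calls numbered 4, 5 and 4 in Hmgn1-/-, Hmgn2-/- and double knockout cells and higher calls 0 by edgeR and by DESeq2, with 10, 9 and 11 lower and 7, 6 and 7 higher at an unadjusted p under 0.05. Over all genes tested 5.08%, 4.38% and 5.00% were called lower, and 38.7%, 31.0% and 38.9% had such a p. The medians were -0.20, -0.19 and -0.13. Grhl2, a grainyhead factor that drives epithelial genes, fell in each knockout, from 77.9 ± 17.2 CPM in WT to 38.1 ± 5.38 (log2 FC -1.04 ± 0.14, edgeR adjusted p = 8.4e-05), 34.1 ± 1.40 (-1.19 ± 0.14, adjusted p = 0.00023) and 34.3 ± 2.24 (-1.19 ± 0.13, adjusted p = 1.3e-05). The other grainyhead genes, named like Klf4 and Junb after their values were seen, lay above WT without overlap in each knockout and did not reach the fold limit, Grhl3 with a log2 FC of 0.84, 0.67 and 0.70 and Grhl1 with 0.18, 0.33 and 0.17. So did the epithelial factor Klf4, with 0.93, 0.69 and 0.74. AP-1 subunits lay on both sides of WT: Jun, Fos and Fosl2 were below it without overlap in each knockout, and Junb (0.66, 0.64 and 0.53) and Jund (0.22, 0.39 and 0.24) above it, the latter pair under the fold limit. Of all genes tested, 21.9%, 17.4% and 21.8% lay above WT without overlap in Hmgn1-/-, Hmgn2-/- and double knockout cells, and 20.5%, 18.7% and 20.8% below it. Jun passed in Hmgn1-/- cells, at 5.49 ± 0.583 CPM against 12.6 ± 2.01 in WT (-1.21 ± 0.14, adjusted p = 3.3e-05), and stood at -0.76 in Hmgn2-/- and -0.85 in double knockout cells. Fosl2 passed in the double knockout, at 2.94 ± 0.456 CPM against 7.76 ± 1.54 in WT (-1.41 ± 0.18, adjusted p = 5.4e-05), and in Hmgn2-/- cells (-1.03 ± 0.23, adjusted p = 0.0098), and stood at -0.92 in Hmgn1-/- cells. Fos passed in Hmgn2-/- cells, at 1.48 ± 0.318 CPM against 3.07 ± 0.221 (-1.04 ± 0.22, adjusted p = 0.0077), and stood at -0.69 in Hmgn1-/- and -0.77 in double knockout cells. Tfap2a and Gata3, named after their values were seen, had means under 50 counts and were lower in each knockout. The list's most abundant gene, Jund, stood at 269 CPM in WT and at 315, 352 and 319 in the knockouts.

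Markers of other cells that carry simple keratins moved with the genotypes, in both directions. Of 14 trophoblast genes, 3 (Gata3, Hand1 and Ascl2) were lower and none higher in each knockout, out of 9, 9 and 10 tested. Among all genes tested 5.08%, 4.38% and 5.00% were called lower in Hmgn1-/-, Hmgn2-/- and double knockout cells. Hand1 stood at 5.08 ± 1.13 CPM in WT and 0.899 ± 0.215 in Hmgn1-/- cells (log2 FC -2.51 ± 0.25, edgeR adjusted p = 6.4e-06), and Ascl2 at 12.7 ± 0.992 and 3.01 ± 0.511 (-2.08 ± 0.15, adjusted p = 3.4e-07). The list summed to 128, 139 and 150 CPM in WT replicates 1, 2 and 3, and to 91.8, 95.2 and 102 in Hmgn1-/- cells. It summed to 106, 112 and 112 CPM in Hmgn2-/- cells and 89.9, 97.1 and 101 in the double knockout. The giant cell and spongiotrophoblast genes Tpbpa, Prl3d1 and Prl2c2 were at 0 counts in all 12 libraries. The part of the trophoblast genes in the fall of the keratins was not tested.

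Of 7 genes of mesothelium and of mesenchyme with smooth muscle genes, 6, 5 and 6 were lower and none higher in Hmgn1-/-, Hmgn2-/- and double knockout cells. A lower call went to 5.08%, 4.38% and 5.00% of all genes tested in these comparisons. The sum of the 7 was 105, 108 and 122 CPM in WT and 27.7, 32.0 and 38.1 in Hmgn1-/- cells. It was 34.5, 34.9 and 43.2 CPM in Hmgn2-/- and 25.8, 26.4 and 28.7 in double knockout cells, so that every knockout library lay below WT. Tagln, an actin-binding protein of smooth muscle and the most abundant of the list in WT, went from 54.7 ± 5.13 CPM in WT to 8.58 ± 1.83 in the double knockout (log2 FC -2.69 ± 0.13, edgeR adjusted p = 6.2e-09). Smooth muscle actin, Acta2, went from 10.3 ± 1.88 to 0.357 ± 0.268 CPM (-4.96 ± 0.32, adjusted p = 9.2e-08) and mesothelin, Msln, from 16.4 ± 5.40 to 1.76 ± 0.309 (-3.23 ± 0.25, adjusted p = 5.5e-07). The contractile genes Myl9 and Cnn1 were also lower in each knockout, with -1.85 ± 0.19 and -1.47 ± 0.20 in the double knockout. Wt1, a mesothelial transcription factor named after its values were seen, was not called in any of the 3, and no gene of the list was at 0 in a group. What these genes share with the keratins was not tested.

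Fibroblast genes, 10 in the list, gave 3 lower calls of 4 tested in Hmgn1-/- and in Hmgn2-/- cells and 4 of 5 in the double knockout. Over all genes tested the shares called lower were 5.08%, 4.38% and 5.00%. DESeq2 made 3 lower calls in the fibroblast list in each knockout, so not all edgeR calls in the double knockout were shared. The list summed to 21.7, 18.1 and 22.6 CPM in WT and to 7.07, 5.92 and 6.80 in Hmgn1-/- cells. It summed to 6.47, 7.27 and 6.96 CPM in Hmgn2-/- cells and 6.12, 8.98 and 7.74 in the double knockout, below every WT library. Its most abundant gene, Thy1, stood at 11.4 ± 0.635 CPM in WT and 3.70 ± 0.108 in Hmgn1-/- cells (log2 FC -1.63 ± 0.13, edgeR adjusted p = 9.3e-07), and Col1a1 at 4.25 ± 1.17 and 1.25 ± 0.0944. The defining genes Lum and Fap were at 0 in all groups, and Postn in Hmgn1-/- and Hmgn2-/- cells, with only 4, 2 and 1 counts of Postn in WT. The stratified epithelium list, of 12 genes, gave 3, 1 and 3 lower calls of 6 tested, beside the same shares of all genes. Its medians were -1.28, -0.71 and -1.09. Sfn made up most of its sum, which was 220 ± 44.3 CPM in WT, 195 ± 38.0 in Hmgn1-/-, 197 ± 44.7 in Hmgn2-/- and 191 ± 28.3 in double knockout cells. Without Sfn the means of the sum were 36.5, 16.8, 20.0 and 15.5 CPM in the same order. Ivl was at 0 in each knockout group, as was Trp63 in Hmgn1-/- and Krt6a in Hmgn2-/- cells. The WT libraries also held almost none, with 1, 0 and 0 counts of Ivl, 3, 0 and 1 of Trp63 and 0, 2 and 1 of Krt6a. The keratins of this list are also among the other keratins, Sfn is among the partners and chaperones and Trp63 among the regulators, and Gata3, Cdx2 and Tfap2c are in both the regulator and the trophoblast list. The part of these cell types was not tested.

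The primitive and visceral endoderm, which also carries Krt8 and Krt18, went the other way. Of 10 tested among 13 genes, 7, 7 and 10 were higher and none lower in Hmgn1-/-, Hmgn2-/- and double knockout cells. A higher call went to 0.898%, 0.776% and 1.30% of all genes tested. The medians of the list were 2.50, 2.82 and 3.84. The list summed to 17.2, 18.6 and 19.5 CPM in WT and to 130, 101 and 107 in Hmgn1-/- cells. It summed to 157, 136 and 99.3 CPM in Hmgn2-/- cells and 323, 321 and 300 in the double knockout, so every knockout library was above WT and every double knockout library above the single knockouts. Cubn, an endocytic receptor and the most abundant of the list in each knockout group, stood at 2.81 ± 0.643 CPM in WT and 114 ± 5.58 in the double knockout (log2 FC 5.38 ± 0.11, edgeR adjusted p = 7.6e-13). Sox17, a transcription factor of the lineage, went from 0.431 ± 0.0781 CPM in WT to 11.8 ± 2.01 in the double knockout, and Gata6, another, from 1.66 ± 0.326 to 25.2 ± 2.43. Pdgfra and the adaptor Dab2 were likewise higher than WT in the double knockout, by 4.89 ± 0.17 and 4.43 ± 0.10. Ttr was at 0 counts in every group, and Afp in Hmgn1-/- cells, with only 2, 0 and 1 counts of Afp in WT. The part of the endoderm genes in the keratin levels was not tested.

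**Figure D4:**
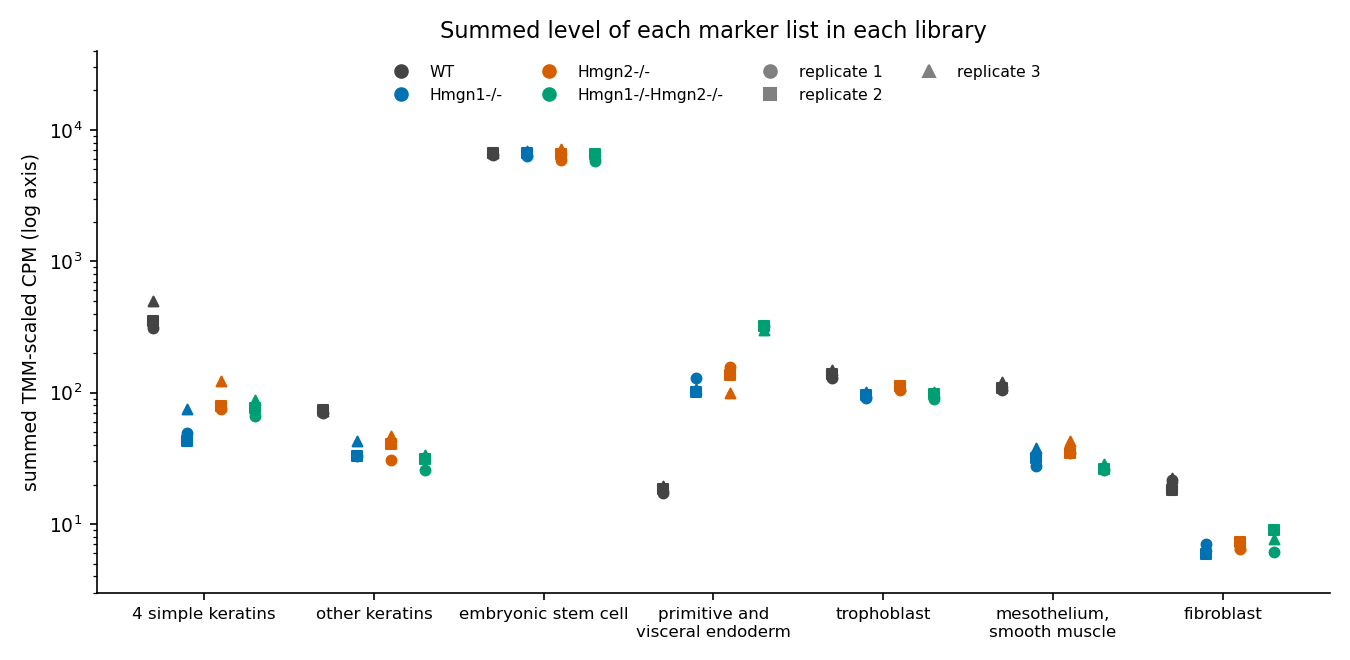
Summed TMM-scaled CPM (log axis) of the 4 simple keratins, the other keratins and 5 marker lists in each library; colours give the genotype and symbols the replicate number. The 4 keratins fell from 386 ± 99.7 CPM in WT to between 55.7 and 91.9 in the knockout groups, while the primitive and visceral endoderm list went from 18.4 ± 1.15 to between 112 and 315.

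The genes whose pattern was most like that of the keratins were found by the root mean square difference of log2 CPM over the 12 libraries, each gene centred on its own mean, among the 11551 genes other than the 4 keratins whose mean count reached 50. For the mean of Krt8 and Krt18 these were Gsn, Cald1, Vgf, Anxa1 and Lgals3, at differences of 0.23, 0.26, 0.27, 0.27 and 0.28, where the pattern of the keratin pair itself had a root mean square of 1.11. Gsn, which encodes the actin-severing protein gelsolin, stood at 33.2 ± 9.38 CPM in WT, 6.72 ± 1.68 in Hmgn1-/-, 8.01 ± 1.67 in Hmgn2-/- and 6.58 ± 0.788 in double knockout cells. Cald1, the actin- and calmodulin-binding caldesmon, stood at 66.8 ± 13.6, 13.7 ± 2.96, 18.2 ± 0.415 and 16.2 ± 1.32 CPM in the same order. For Krt19 the nearest were Gsn, Cald1 and Vgf, and for Krt7 they were Thbs1, Anxa1 and Acta1. Of the keratins themselves, Krt8, Krt18 and Krt19 were as near to one another: Krt19 differed from the mean of Krt8 and Krt18 by 0.21, from Krt18 by 0.23 and from Krt8 by 0.24, and Krt8 from Krt18 by 0.21. Krt7 lay farther off, at 0.42 from Krt18, 0.54 from Krt19 and 0.56 from Krt8, where Thbs1 was at 0.29 from it. Over the 9 knockout libraries alone, 0 of the 5 genes nearest Krt8 and Krt18, 1 of the 3 nearest Krt7 and 0 of the 3 nearest Krt19 were among the nearest again.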

How the data were processed

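Poly-A RNA of 12 mESC cultures was sequenced as paired ends. The values are raw counts per gene as the authors deposited them, made with STAR on mm10 by the submitters' notes, which also name DESeq2. The counting program, annotation and use of strand are not given in the sources used here, so overlapping genes and near-identical copies, such as processed pseudogenes of Krt8 and Krt18, may share reads. Replicates are described as biological, and p-values measure the spread between these cultures.

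Members and gene lists were chosen with earlier results of these data known. Groups and replicate numbers came from the labels. In R 4.3.3, edgeR 4.0.16 (TMM, default filter on low counts, quasi-likelihood test, Benjamini-Hochberg over all genes tested) was fitted to the 6 libraries of each comparison, and to all 12 for the departure from additivity (double knockout minus both single knockouts plus WT, log2). SE is the log2 FC over the square root of F. Calls needed an adjusted p under 0.01 and a log2 FC of at least 1 in size. Scripts were tested on simulated data. Named genes were the 4 members, Hmgn1 and Hmgn2, and from each list up to 5 genes past the limits with the largest change, a mean of at least 50 counts and no overlap with WT, with the 3 most abundant of the linker and stem cell lists. The type I to type II ratio was tested by exact permutation in scipy 1.17.1. Lengths came from GENCODE inside RefSeq gene bounds; 21777 of 23412 symbols matched GENCODE. Promoters are from RefSeq (GRCm38.p6), which held 3 of the 4 members; that of Krt19 is not shown. Printed stretches were moved upstream of the GENCODE start after the values were seen. No pair of replicates differed by sampling noise alone (chi-square per degree of freedom 3.28 to 34.3). Alternatives were DESeq2 1.42.0, RLE scaling, no filter, 1 fit of all libraries, no fold limit, a replicate block and each replicate left out; a further transcript length was chosen after seeing the data.

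Deviations of same-numbered libraries from their group means correlated at 0.0628 to 0.584 over 18 pairs, across genes. In 4 of 6 comparisons every pair was over 0.1, so the numbers pair the libraries there; the pairing comes from this check and not from the labels. In Hmgn2-/- against WT and the double knockout against Hmgn1-/- the lowest were 0.0817 and 0.0628.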

Additional observations from a re-analysis of the deposited data

Results flagged for a closer look

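The effect of losing Hmgn1 differed between cells that had and cells that lacked Hmgn2, by the test of the departure from additivity, for all 4 keratins and for Hmgn1 itself. The departure was 2.71 for Krt8, 2.41 for Krt18, 2.32 for Krt7 and 1.87 for Krt19 on the log2 scale. Read through the cells, the loss of Hmgn1 moved mean log2 CPM of Krt8 by -2.82 from WT and by -0.077 from Hmgn2-/- cells, and that of Krt7 by -3.37 and by -1.10. The corresponding changes were -2.78 and -0.38 for Krt18, and -2.44 and -0.54 for Krt19. For Hmgn1 the departure was -2.63, with 22.5% of the WT level in Hmgn1-/- cells and 3.37% in the double knockout. With 1 clone for each genotype, these differences and differences between clones cannot be told apart.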

How the results depend on the processing

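The 4 keratins kept their direction and their side of the limits in all 144 alternatives of the comparisons with WT and in all 68 of the departure from additivity. Without 1 replicate at a time, Krt8 ranged from -3.12 to -2.59 in Hmgn1-/-, -2.28 to -1.82 in Hmgn2-/- and -2.29 to -1.93 in double knockout cells against WT. Between knockouts, 143 of 144 alternatives kept both. The exception was Krt8 in the double knockout against Hmgn2-/- cells, at 0.14 without Hmgn2-/- replicate 3 (range without single replicates -0.22 to 0.14; unadjusted p = 0.204 by edgeR), against -0.098 with it; the cause was not tested. Krt18 there ranged from -0.56 to -0.12 and Krt19 from -0.72 to -0.25; in Hmgn2-/- against Hmgn1-/- cells Krt18 ranged from 0.33 to 0.81 and Krt19 from 0.50 to 1.02, lowest without Hmgn2-/- replicate 3. Hmgn2 in the first of these, at -0.0037, ranged from -0.035 to 0.025 and turned in 3 of 6 such fits.

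Without the fold limit, which is a looser rule, genes called numbered 2412 (832 with it) in Hmgn1-/-, 1400 (724) in Hmgn2-/- and 2544 (890) in double knockout cells against WT, 48 (24) in Hmgn2-/- against Hmgn1-/- cells, 150 (70) in the double knockout against Hmgn1-/- cells and 905 (499) for the departure from additivity. The count for the double knockout against Hmgn2-/- cells was 6. It was 29 with DESeq2, 21 without the filter on low counts, 18 in a fit of all 12 libraries and 32 with the replicate block. It ranged from 1 to 12 without single replicates: 12 without Hmgn2-/- replicate 1, 3 without double knockout replicate 1, and 1 without Hmgn2-/- replicate 2 or double knockout replicates 2 or 3. The cause was not tested. With the replicate block the other counts, in the order above, were 902, 676, 942, 30, 95 and 582, and no call of the keratins changed; in 16 of 18 pairs a library correlated best with its own number.

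The type I to type II log2 ratio of the double knockout against WT was -0.36 with full GENCODE lengths, chosen after seeing the data, and -0.31 otherwise. Krt7 rests on 27 to 78 counts in each knockout library, and a count of 3 stands for 0.0954 to 0.173 CPM; such floors cover counting error only. Transcripts were measured, not proteins or filaments, and 1 clone stood for each edited genotype.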
